A study of Homo sapiens with 6 samples.

Results

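The iron-dependent 2-oxoglutarate dioxygenases are enzymes that use iron, oxygen and 2-oxoglutarate to hydroxylate or demethylate proteins, nucleic acids and small molecules. Their genes were read in ARPE-19, a widely used human cell line derived from retinal pigment epithelium, in cells treated with FAC or left untreated. Members were defined by gene symbol, from the annotation of the array probes: the KDM2 to KDM7, JMJD, TET, EGLN, P4HA, PLOD, ALKBH and OGFOD families, with HIF1AN, PHYH, ASPH, FTO, TMLHE, BBOX1, RIOX1 and RIOX2, and without the Y-linked paralogues UTY and KDM5D. This choice was made with earlier results of these data known. The rule named 52 protein-coding genes of the RefSeq gene table, and 30 of them were among the 14884 genes with a named probe. The other 22 had no named probe and were not analysed here: ALKBH1 to ALKBH8, P4HA1 to P4HA3, PLOD1 to PLOD3, EGLN2, HIF1AN, TET3, TMLHE, BBOX1, JMJD4, JMJD7 and KDM4F. No collagen prolyl 4-hydroxylase and no lysyl hydroxylase could therefore be read. A further 4 noncoding genes whose symbols begin in the same way were not taken as members.

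The study compared 2 groups of ARPE-19 cells, with 3 biological replicates and 3 arrays in each. One group received 250 µM FAC (ferric ammonium citrate, as the abbreviation is commonly read in work on iron) for 2 days, and the other received vehicle for the same time. All the cells had first been held at confluence in low serum to differentiate, and the experiment itself ran in serum-free medium. The labels name no separate donors or clones for this single line. Values below are log2 intensities on single arrays, and changes are differences of mean log2 intensity, FAC minus untreated, ± SE. Each p-value is limma's, adjusted by Benjamini-Hochberg over all 14884 genes, and the threshold was 0.05.

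In the cell, the EGLN enzymes (also called PHD) hydroxylate prolines of the hypoxia-inducible factors (HIF), which marks HIF for destruction when oxygen and iron are at hand. The KDM enzymes carry a Jumonji C (JmjC) domain and remove methyl groups from histone lysines, the TET enzymes oxidise 5-methylcytosine in DNA, and FTO demethylates RNA. Several of these genes, EGLN1, EGLN3 and KDM3A among them, are known from hypoxic cells as targets of HIF. The level of a transcript says nothing of the activity of its enzyme, which the arrays did not measure.

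With FAC, 4 of the 30 dioxygenase genes fell and none rose. They were EGLN1, the main HIF prolyl hydroxylase, and the histone demethylase genes KDM3A, KDM7A and KDM4C, and each was between 1.28-fold and 1.40-fold lower in FAC-treated cells. Over all tested genes 3.73% passed the same threshold, 1.85% as lower and 1.88% as higher. None of the 30 changed by 1.5-fold or more, a size that 0.692% of all tested genes reached with an adjusted p under 0.05. At an unadjusted p under 0.05, 8 members were lower, against 9.06% of all tested genes, and 1 was higher, JMJD1C, against 8.14%. The median change of the 30 was -0.07, beside -0.0041 over all tested genes, and 23 of the 30 lay below 0, as did 51.5% of all tested genes. The number of falling members was smaller when any 1 array was left out. The share of all tested genes called lower was then smaller too, at 0.49% to 1.33%. The number was 1 (EGLN1) without FAC replicate 1 and 2 (EGLN1 and KDM3A) without FAC replicate 2, FAC replicate 3 or untreated replicate 3. It was 3 without untreated replicate 1 or untreated replicate 2. Over the 14 alternatives the change of KDM7A lay between -0.50 and -0.39 and that of KDM4C between -0.41 and -0.32.

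The start regions of the 4 genes that fell are shown because these members passed the threshold. HIF binds DNA at short core sequences, which are marked, and whether HIF acted on these genes was not tested. Each is the window from 250 bases before to 50 bases after the gene start in the RefSeq promoter table (GRCh38.p14), written 5′ to 3′ on the strand of the gene. Capitals mark every match to ACGTG or GCGTG on either strand, the 5-base HIF core.
EGLN1, chr1:231422238-231422537, minus strand: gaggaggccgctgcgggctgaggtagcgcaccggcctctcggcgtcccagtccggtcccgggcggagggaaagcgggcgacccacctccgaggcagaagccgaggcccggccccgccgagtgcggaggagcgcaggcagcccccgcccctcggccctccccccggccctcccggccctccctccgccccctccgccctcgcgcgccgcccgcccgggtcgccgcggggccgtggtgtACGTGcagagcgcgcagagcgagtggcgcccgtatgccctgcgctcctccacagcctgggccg
KDM3A, chr2:86441121-86441420, plus strand: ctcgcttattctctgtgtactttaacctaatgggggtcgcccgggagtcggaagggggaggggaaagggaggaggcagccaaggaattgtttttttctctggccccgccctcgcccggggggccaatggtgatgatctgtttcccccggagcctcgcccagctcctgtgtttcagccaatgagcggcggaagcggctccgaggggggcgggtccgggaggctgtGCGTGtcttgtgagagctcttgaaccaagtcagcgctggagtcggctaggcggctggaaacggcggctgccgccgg
KDM7A, chr7:140176934-140177233, minus strand: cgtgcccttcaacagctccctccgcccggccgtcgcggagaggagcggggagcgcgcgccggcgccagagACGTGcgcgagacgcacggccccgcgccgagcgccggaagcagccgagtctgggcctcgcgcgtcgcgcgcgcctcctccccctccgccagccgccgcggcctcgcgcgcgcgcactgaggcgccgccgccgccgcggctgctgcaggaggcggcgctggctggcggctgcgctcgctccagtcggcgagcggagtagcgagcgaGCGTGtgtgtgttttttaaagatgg
KDM4C, chr9:6757723-6758022, plus strand: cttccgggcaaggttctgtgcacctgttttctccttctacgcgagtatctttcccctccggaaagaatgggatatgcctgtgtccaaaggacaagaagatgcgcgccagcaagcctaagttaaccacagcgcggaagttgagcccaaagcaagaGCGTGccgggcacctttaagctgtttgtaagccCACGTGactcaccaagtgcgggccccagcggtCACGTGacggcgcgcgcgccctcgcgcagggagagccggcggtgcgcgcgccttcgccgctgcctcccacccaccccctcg

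The EGLN1 window held 1 match, beginning 13 bases before the gene start, and the KDM3A window held 1, beginning 26 bases before it. KDM7A had 2 matches and KDM4C had 5. The 5 in KDM4C include both strands of 2 CACGTG sequences, the palindromic E-box, in which the core is read on either strand. For KDM3A and KDM4C the start used by the promoter table differs from the gene start in the RefSeq gene table, so other starts of these genes are not shown. Over the 25 members with an entry, 19 windows matched that gene start. The member shares that follow include the windows that did not. Of the 25 members with an entry, 17 (68.0%) held at least 1 match, against 57.8% of the 10749 promoters of tested genes and 48.4% of all 27305 promoters in the table. Among the 21 members with an entry that did not pass the threshold, 13 held a match. EGLN3 had none in this window, and KDM6A, which overlapped between the groups, had as many as KDM4C. The core contains a CG pair, and such windows are rich in it: the median was 35.5 CG pairs in the windows of the 4 genes that fell and 24 in those of all members, against 23 for tested genes and 14 for all promoters. A match is a description of the letters, not of binding.

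Of the HIF hydroxylases, EGLN1 (also PHD2) measured 9.78, 9.81 and 9.79 on the FAC arrays and 10.16, 10.18 and 10.22 on the untreated arrays. The 3 FAC values were all below the 3 untreated ones, and the gap was several times the spread within either group. The means were 9.79 ± 0.01 with FAC and 10.18 ± 0.03 in untreated cells (SD, n = 3 each), a change of -0.39 ± 0.05 (1.31-fold lower, limma adjusted p = 0.00804). EGLN1 passed the threshold in all 14 alternative analyses. EGLN3 (also PHD3), the hypoxia-inducible relative, measured 6.53, 6.14 and 6.59 with FAC and 6.57, 6.65 and 6.73 in untreated cells. Its FAC and untreated values overlapped, and FAC replicate 2 was the low array. The change was -0.23 ± 0.12 (limma adjusted p = 0.361, 95% interval -0.50 to 0.03), an interval that holds both 0 and the change of EGLN1. Without FAC replicate 2 it was -0.09.

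**Figure D1:**
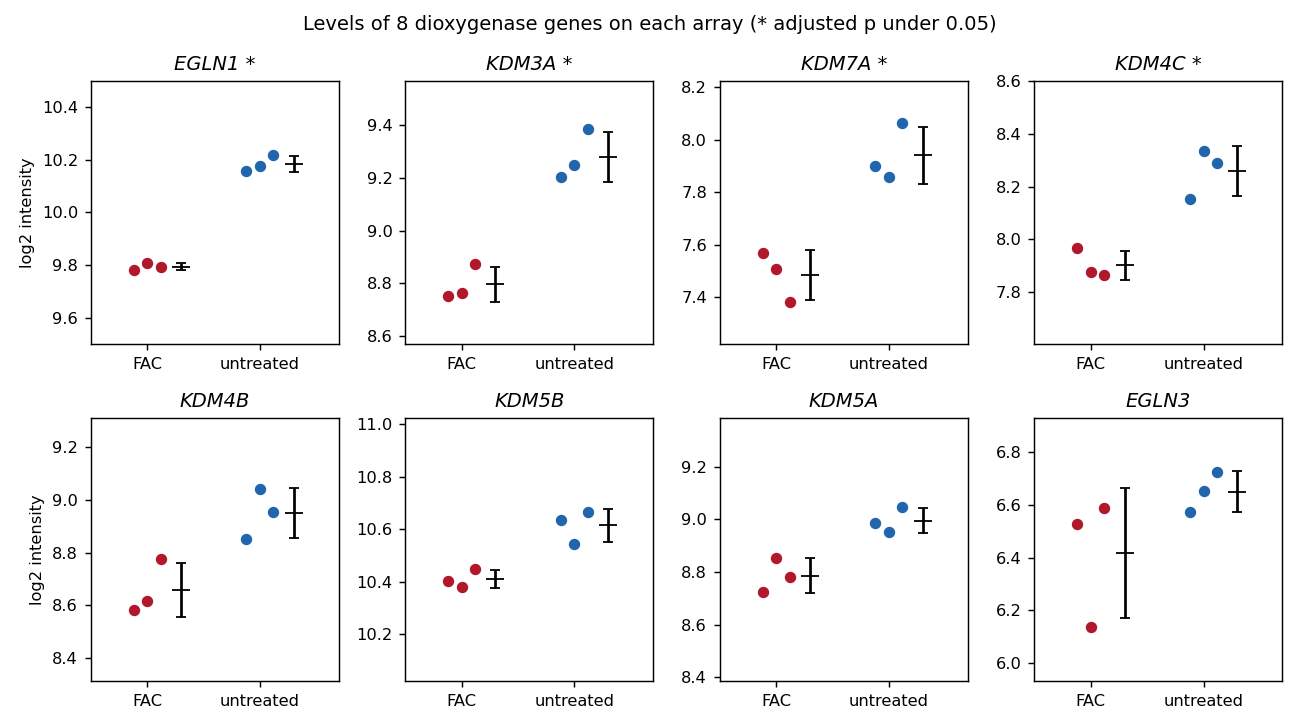
Log2 intensity on each array (points, FAC left in red, untreated right in blue) for 8 dioxygenase genes, with the mean and SD of each group in black (n = 3) and the same span of 1 log2 unit on each vertical axis. In EGLN1, KDM3A, KDM7A and KDM4C (starred, adjusted p under 0.05) and in KDM4B, KDM5B and KDM5A every FAC value lies below every untreated value, and in EGLN3 the groups overlap.

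Among 16 histone demethylase genes, 3 fell and none rose, with a median change of -0.08. Over all tested genes 1.85% passed as lower and 1.88% as higher, so a list of this size would seldom hold a rising gene. KDM3A, which removes methyl groups from H3K9, measured 8.75, 8.76 and 8.87 with FAC and 9.20, 9.25 and 9.39 in untreated cells. The groups were apart by more than the spread within them, and the change was -0.48 ± 0.07 (1.40-fold lower, limma adjusted p = 0.0111), the largest of the 30. KDM3A passed in 12 of 14 alternatives, and without FAC replicate 1 it did not (adjusted p = 0.0618). Its close relative KDM3B measured 9.71, 9.71 and 9.68 with FAC and 9.72, 9.65 and 9.84 in untreated cells (-0.04 ± 0.06, adjusted p = 0.826). JMJD1C, a larger protein of the same branch, lay above the untreated arrays on each FAC array, at 10.49, 10.45 and 10.41 with FAC and 10.22, 10.40 and 10.30 in untreated cells, but did not pass (0.14 ± 0.06, limma adjusted p = 0.284). The 3 genes of this branch thus gave a fall, a value near 0 and a positive value.

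KDM7A, a demethylase of H3K9 and H3K27, measured 7.57, 7.51 and 7.38 with FAC and 7.90, 7.86 and 8.06 in untreated cells. All FAC arrays were lower, with FAC replicate 3 the lowest and untreated replicate 3 the highest. The change was -0.45 ± 0.08 (1.37-fold lower, limma adjusted p = 0.0219). It did not pass when FAC replicate 1 (0.0607), FAC replicate 2 (0.0627), FAC replicate 3 (0.0708), untreated replicate 1 (0.057) or untreated replicate 3 (0.0723) was left out (adjusted p in brackets). KDM7A-DT, the noncoding transcript that runs away from the same start region, measured 6.17, 5.96 and 5.70 with FAC and 6.30, 5.99 and 6.20 in untreated cells. Its groups overlapped (-0.22 ± 0.13, adjusted p = 0.433).

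The KDM4 enzymes act on H3K9, and some of them also on H3K36. KDM4C measured 7.97, 7.88 and 7.87 with FAC and 8.15, 8.34 and 8.29 in untreated cells, again without overlap. The change was -0.36 ± 0.07 (1.28-fold lower, limma adjusted p = 0.0283). It did not pass without FAC replicate 1 (0.0824), FAC replicate 2 (0.0913), FAC replicate 3 (0.0916), untreated replicate 2 (0.0677) or untreated replicate 3 (0.109). KDM4B measured 8.58, 8.62 and 8.78 with FAC and 8.85, 9.04 and 8.96 in untreated cells. Its FAC values were the lower ones, but it stood just outside the threshold (-0.29 ± 0.07, adjusted p = 0.0855), and it passed in 2 of 14 alternatives. KDM4A measured 9.40, 9.31 and 9.29 with FAC and 9.27, 9.39 and 9.31 in untreated cells, with overlapping groups (0.0067 ± 0.06, adjusted p = 0.966, 95% interval -0.13 to 0.14). KDM4D (0.17 ± 0.10, adjusted p = 0.421) and KDM4E (0.15 ± 0.08, adjusted p = 0.411) had positive values, and their groups overlapped.

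The KDM5 enzymes remove methyl groups from H3K4. KDM5B measured 10.40, 10.38 and 10.45 with FAC and 10.63, 10.55 and 10.67 in untreated cells (-0.20 ± 0.06, limma adjusted p = 0.102). KDM5A measured 8.72, 8.85 and 8.78 with FAC and 8.99, 8.95 and 9.05 in untreated cells (-0.21 ± 0.06, adjusted p = 0.108). Neither gene had a FAC array above an untreated one, and neither passed. KDM5C gave -0.04 ± 0.06 (adjusted p = 0.802) with overlapping groups. The H3K27 demethylase genes KDM6A (-0.07 ± 0.07, adjusted p = 0.688) and KDM6B (-0.14 ± 0.07, adjusted p = 0.358) and the H3K36 demethylase genes KDM2A (-0.10 ± 0.05, adjusted p = 0.390) and KDM2B (-0.02 ± 0.06, adjusted p = 0.897) did not pass.

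Whether paralogues differed in their change was examined in 8 pairs, chosen after their values had been seen, as the difference of their log2 values on each array. KDM3A minus KDM3B gave a change of -0.45 (SD of the array differences 0.08 with FAC and 0.06 in untreated cells, n = 3 each; 2-sided exact permutation p = 0.1, 0.114 adjusted over the 8 pairs). KDM4C minus KDM4A gave -0.36 (SD 0.0039 with FAC and 0.05 in untreated cells, the same exact p and adjusted p). EGLN1 minus EGLN3 gave -0.16 (SD 0.26 with FAC and 0.05 in untreated cells, exact p = 0.4, also 0.4 adjusted). With 3 arrays against 3 the smallest p that this test allows is 0.1, so no such difference could pass. Every pair except EGLN1 and EGLN3 gave this exact p, even KDM6B minus KDM6A with a difference of -0.07, so it does not rank the pairs.

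**Figure D2:**
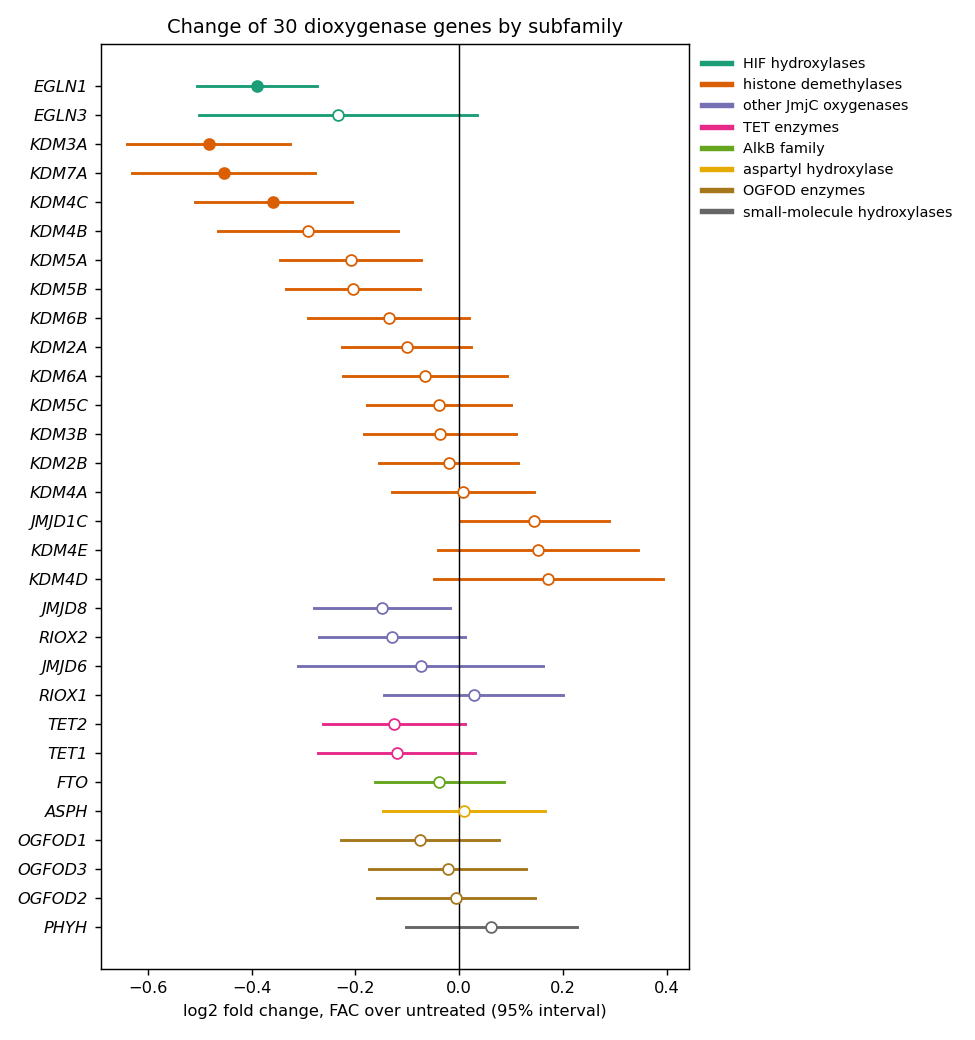
Log2 fold change of FAC over untreated (horizontal axis) with limma's 95% interval for the 30 dioxygenase genes, grouped and coloured by subfamily; filled points passed an adjusted p of 0.05. The filled points are EGLN1, KDM3A, KDM7A and KDM4C, all below 0, and the intervals of the genes of the last 4 subfamilies all include 0.

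None of the 4 measured JmjC oxygenase genes whose products act mainly on other proteins passed. Their median change was -0.10, and their changes ran from -0.15 to 0.03. JMJD8, a protein of the endoplasmic reticulum, measured 10.39, 10.40 and 10.46 with FAC and 10.60, 10.49 and 10.60 in untreated cells (-0.15 ± 0.06, limma adjusted p = 0.228). RIOX2 (also MINA), a histidine hydroxylase of a ribosomal protein, measured 8.22, 8.19 and 8.21 with FAC and 8.30, 8.28 and 8.44 in untreated cells (-0.13 ± 0.06, adjusted p = 0.334). In both genes the FAC arrays were the lower ones. JMJD6 (-0.07 ± 0.10, adjusted p = 0.774) and RIOX1, the other ribosomal histidine hydroxylase gene (0.03 ± 0.07, adjusted p = 0.893), had overlapping groups.

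Neither measured TET gene passed. TET2 measured 9.02, 9.12 and 9.14 with FAC and 9.21, 9.16 and 9.28 in untreated cells, with the FAC arrays lower (-0.13 ± 0.06, limma adjusted p = 0.334). TET1 measured 7.76, 7.94 and 7.81 with FAC and 7.97, 7.90 and 8.01 in untreated cells, with overlap (-0.12 ± 0.07, adjusted p = 0.407). TET1 was the only member with a second named probe, which had a mean of 4.24 over the 6 arrays and gave a change of -0.03 ± 0.13.

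FTO measured 9.83, 9.92 and 9.88 with FAC and 9.96, 9.90 and 9.89 in untreated cells, and its groups overlapped. Its change was -0.04 ± 0.05 (limma adjusted p = 0.782), with a 95% interval of -0.16 to 0.09. ASPH, which hydroxylates EGF-like domains in the secretory pathway, measured 9.58, 9.61 and 9.48 with FAC and 9.48, 9.66 and 9.50 in untreated cells (0.0092 ± 0.07, adjusted p = 0.959, 95% interval -0.15 to 0.17). The 3 OGFOD genes, which include OGFOD1, a prolyl hydroxylase of a ribosomal protein, lay between -0.08 and -0.0061 with adjusted p-values from 0.625 to 0.973. PHYH, the peroxisomal enzyme of phytanic acid breakdown, gave 0.06 ± 0.07 (adjusted p = 0.721). For each of these genes the interval holds 0 and excludes the changes of KDM3A and EGLN1.

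By array, the mean deviation of the 30 genes from their own means was -0.05, -0.06 and -0.05 on the FAC arrays and 0.03, 0.04 and 0.09 on the untreated ones. Without the 4 genes that fell it was -0.03, -0.04 and -0.02 with FAC and 0.01, 0.01 and 0.06 in untreated cells, and untreated replicate 3 lay highest in both. In 12 of the 30 genes all FAC values were lower, where 13.0% of all tested genes have this order, and in 1 gene, JMJD1C, they were all higher, where 10.4% do. The groups of the other 17 overlapped.

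**Figure D3:**
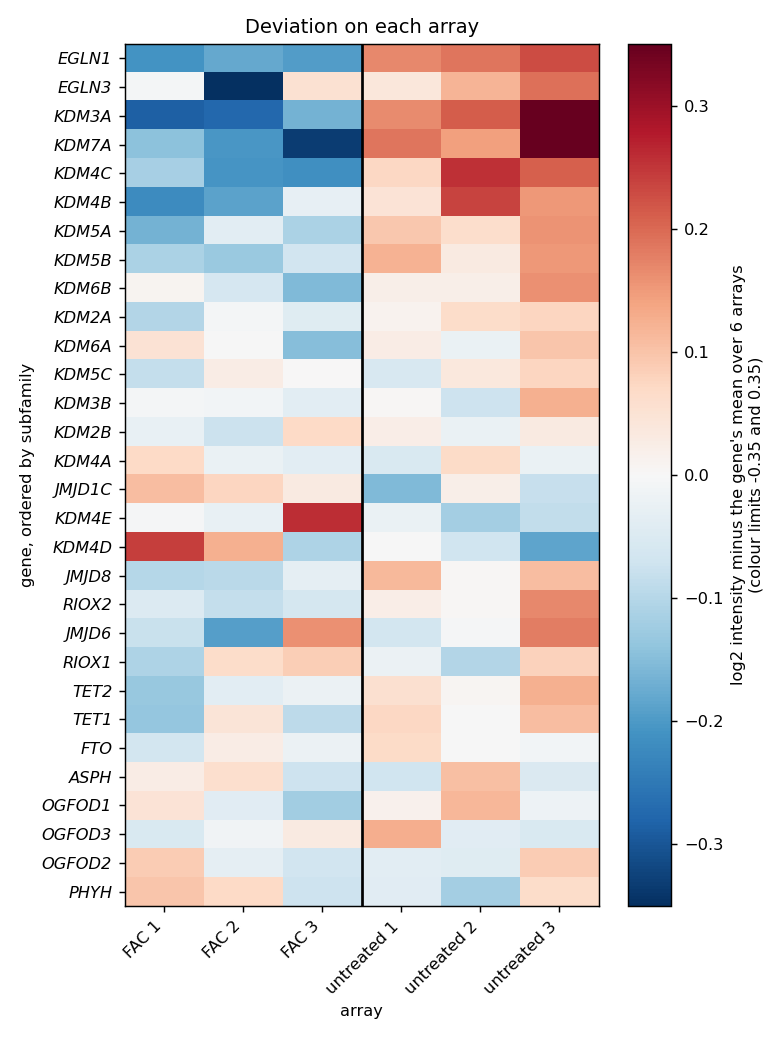
Log2 intensity minus the mean of the gene over 6 arrays for the 30 dioxygenase genes (rows, by subfamily) on the 3 FAC arrays (left of the line) and the 3 untreated arrays (right); blue is below the mean of the gene and red above it. EGLN1, KDM3A, KDM7A, KDM4C and KDM4B are blue on each FAC array and red on each untreated one, and EGLN3 is deep blue on FAC replicate 2.

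The mean probe intensities of the members ran from 5.30 (KDM4E) to 10.51 (KDM5B). Their median percentile among all tested genes was 79.8, and 27 of the 30 stood at or above percentile 50. The share called lower over all tested genes thus comes from a dimmer set. Without the dimmest 1 in 3 genes that share was 4.45% instead of 1.85%, and 6 of the 29 members left were lower. Intensity depends on the probe as well as on the transcript, so it does not rank the expression of these genes. The SE of their changes lay between 0.05 (EGLN1) and 0.12 (EGLN3), beside a median SE of 0.07 over all tested genes. Without detection calls it is not known which members stood above background.

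**Figure D4:**
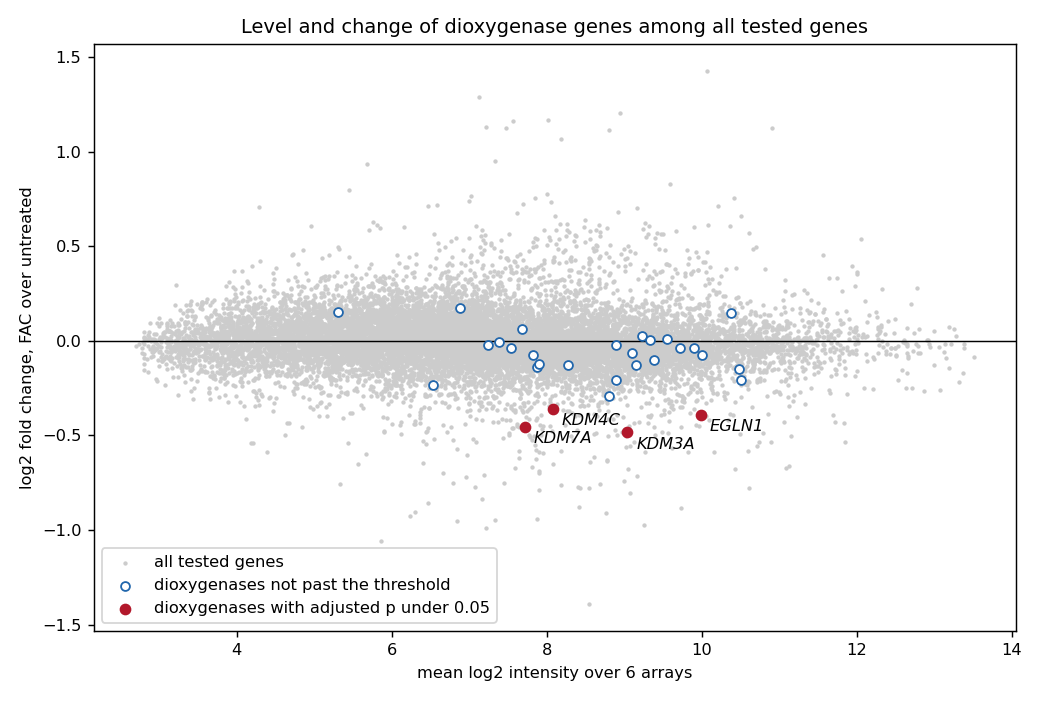
Log2 fold change of FAC over untreated (vertical axis) against mean log2 intensity over 6 arrays (horizontal axis) for all 14884 tested genes (grey), the 26 dioxygenase genes that did not pass (open) and the 4 that fell (red, named). The red points lie between -0.48 and -0.36.

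Genes that work beside the dioxygenases were read from lists. The transcription factor subunits and regulators of oxygen sensing showed no call in either direction among 9 measured genes (median change -0.0023). EPAS1, the gene of HIF-2 alpha, gave -0.15 ± 0.08 (adjusted p = 0.390) and ARNT, the shared partner subunit, gave -0.00037 ± 0.07 (adjusted p = 0.997). The ubiquitin ligase gene SIAH2, whose product targets EGLN enzymes, gave -0.25 ± 0.07 (limma adjusted p = 0.110), and SIAH1 gave -0.33 ± 0.11 (adjusted p = 0.158). HIF1A and VHL had no named probe here.

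Of 15 measured HIF targets other than the dioxygenases, 11 fell and none rose, and their median was -0.44. Over all tested genes 1.85% passed as lower, and this list was drawn up with earlier results of these data known. DDIT4 (-0.25, limma adjusted p = 0.0615), CA12 (-0.14, adjusted p = 0.364), NDRG1 (-0.06, adjusted p = 0.623) and ADM (-0.05, adjusted p = 0.787) did not pass. ANKRD37 (-0.88 ± 0.08), MIR210HG (-0.78 ± 0.06), the mitophagy gene BNIP3 (-0.68 ± 0.06) and the hexokinase gene HK2 (-0.59 ± 0.07) fell most. The angiogenic factor gene VEGFA (-0.49 ± 0.07, limma adjusted p = 0.0107) and the oxidoreductase gene ERO1A (-0.38 ± 0.05, adjusted p = 0.0103) fell by about as much as KDM3A and EGLN1. EGLN1, EGLN3 and KDM3A, set beside them as known targets, had -0.39, -0.23 and -0.48. The mean level of the 15 was 8.74, 8.67 and 8.70 on the FAC arrays and 9.09, 9.11 and 9.19 on the untreated ones. The count of 11 became 7 without FAC replicate 1, 6 without untreated replicate 3, 5 with every probe tested and 7 with the replicate block. ERO1A passed in none of these 4 settings, and VEGFA did not pass with every probe tested.

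Over all tested genes 1.85% passed as lower and 1.88% as higher. Of 13 measured partners in collagen modification, 4 fell and none rose. They were P3H1, a collagen prolyl 3-hydroxylase that is itself a 2-oxoglutarate dioxygenase outside the rule (-0.38 ± 0.05, limma adjusted p = 0.0105), the lysyl oxidase genes LOXL2 (-0.29 ± 0.06) and LOX (-0.26 ± 0.05), and the isomerase gene PPIB (-0.25 ± 0.05). The count was 1 without any 1 array other than untreated replicate 3, and 0 without that one, with every probe tested or with the replicate block. Among 14 further 2-oxoglutarate oxygenases and JmjC or related proteins, P3H1 was the 1 gene that fell, and none rose. In that list PHF8 (-0.07 ± 0.06, adjusted p = 0.659), PHF2 (-0.05 ± 0.07, adjusted p = 0.775) and KDM8 (0.04 ± 0.06, adjusted p = 0.796), relatives of the KDM7 and JMJD enzymes, did not pass.

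Of 17 measured histone lysine methyltransferase genes, which add the marks that KDM enzymes remove, EZH2, the H3K27 methyltransferase, rose (0.47 ± 0.08, limma adjusted p = 0.0277) and none fell. It did not pass without any 1 array other than untreated replicate 2. The list had a median of 0.0062. The flavin-dependent demethylase genes KDM1A (-0.02 ± 0.05, adjusted p = 0.857) and KDM1B (0.04 ± 0.06, adjusted p = 0.808), which need no iron, did not pass. None of 10 measured partners of the TET enzymes in DNA methylation and repair passed, and UHRF1 (0.35 ± 0.08, adjusted p = 0.0516) and DNMT1 (0.23 ± 0.07, adjusted p = 0.136) came closest. None of 13 measured writers and readers of RNA methylation passed, with IGF2BP3 closest (-0.20 ± 0.07, adjusted p = 0.183).

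The supply of cosubstrate and iron to these enzymes was represented by 13 measured genes, none of which passed, even at an unadjusted p under 0.05 (median change 0.0026). OGDH, which consumes 2-oxoglutarate in the citric acid cycle, gave 0.10 ± 0.06 (limma adjusted p = 0.405). PCBP1, whose product delivers iron to EGLN enzymes, gave -0.0047 ± 0.05 (adjusted p = 0.973). Of 5 measured genes of carnitine use none passed, with CROT (-0.24 ± 0.07, adjusted p = 0.113) and CPT1A (-0.21 ± 0.06, adjusted p = 0.143) the closest.

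**Figure D5:**
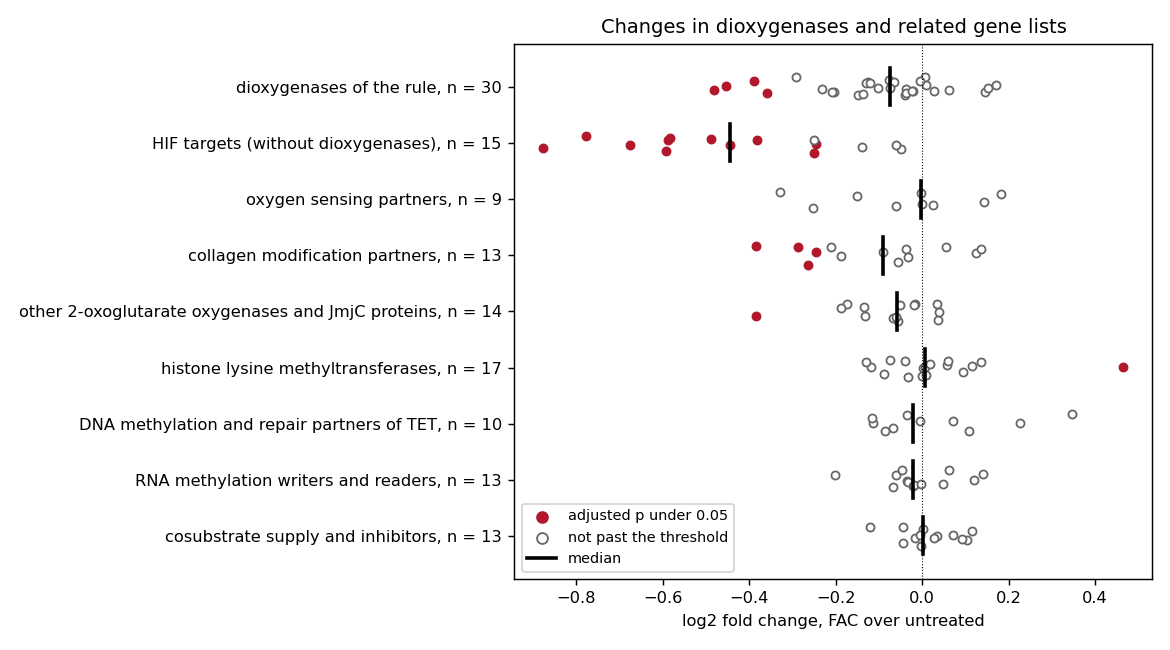
Log2 fold change of FAC over untreated (horizontal axis) for each measured gene of 9 sets, with the median as a black bar; red points passed an adjusted p of 0.05. The 15 HIF targets lie furthest to the left (median -0.44), the 30 dioxygenases have a median of -0.07 with 4 red points, and EZH2 is the 1 red point above 0.

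Over all probes the median log2 intensity lay between 6.03 and 6.09 on the 6 arrays, and no pair of arrays correlated below 0.991. Of the 16 measured markers of retinal pigment epithelium none passed, and their mean level was 8.28 to 8.33 with FAC and 8.24 to 8.38 in untreated cells. On untreated replicates 1, 2 and 3 TYR measured 8.0, 6.9 and 7.9 and TYRP1 10.5, 9.5 and 10.3, so replicate 2 was low in both. RLBP1 was higher on each FAC array (0.31 ± 0.08, limma adjusted p = 0.0843) and MITF lower (-0.15 ± 0.06, adjusted p = 0.215). By probe intensity OTX2, KRT18, TJP1 and EZR stood between percentiles 97.3 and 99.4 and the visual cycle genes RPE65 and LRAT at percentiles 22.6 and 29.4. Markers of blood and endothelium ran from percentile 14.4 to 98.5 (CD68). Those of fibroblasts ran from 19.6 to 87.3, and those of neurons, glia and photoreceptors from 21.1 to 85.3. Without detection calls neither presence nor absence of a marker could be called. Of the measured markers of other cells, CSF1R fell among 6 of blood and endothelium (-0.37 ± 0.07, adjusted p = 0.0365; mean level of the list 7.03 to 7.11 with FAC and 7.09 to 7.27 in untreated cells). LUM fell among 4 of fibroblasts (-0.56 ± 0.08, adjusted p = 0.0104; 7.57 to 7.60 with FAC and 7.82 to 7.96 in untreated cells), and none of 5 of neurons, glia and photoreceptors passed (6.79 to 6.88 with FAC and 6.74 to 6.81 in untreated cells). CSF1R did not pass without any 1 array other than untreated replicate 2, nor LUM without FAC replicate 1. The part of these lists in the falls of EGLN1, KDM3A, KDM7A and KDM4C was not tested, and in such bulk samples fewer cells of a type and less RNA per cell cannot be told apart.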

How the data were processed

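Per the labels' protocols, total RNA from each of 6 ARPE-19 cultures was amplified, labelled with biotin and read on its own array. The authors deposited 1 table of log2 intensities for 53617 probes, and per the submitters' processing notes RMA and Partek 6.6 were used, in roles not stated. The log2 scale was read from the range of the values, 2.41 to 14.22. Signal over background and scan batches could not be examined, since no detection calls or dates were used here, and the number of arrays limits the precision.

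The platform annotation gave 16098 probes 1 symbol each. For the 779 genes with several probes the one with the highest mean was used. The groups were compared by 2-sided moderated tests in limma 3.58.1 (R 4.3.3, default lmFit and eBayes settings), with Benjamini-Hochberg adjustment over 14884 genes. Lists are given as counts and medians, with no set test. The alternatives were leaving out the 1 in 3 genes of lowest mean, quantile normalization, median centring, a trended robust prior, array weights, averaging or separately testing all probes, a replicate block, and omission of each array in turn. On simulated data with normal, independent noise and 200 changed genes among 14884, in 20 runs, the procedure recovered 16.9% of log2 changes of 0.3, 73.5% of those of 0.5 and 98.8% of those of 1, with 5% of calls false. Members and lists were chosen with earlier results of these data known. Every member is named. From the other lists the largest changes past the threshold or the smallest p-values were named, and other genes named were chosen after their values were seen.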

Additional observations from a re-analysis of the deposited data

How the results depend on the processing

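No member was called higher under the reported analysis or any of the 14 alternatives (limma, adjusted p under 0.05; 1 at an unadjusted p under 0.05 in the reported analysis), and EGLN1 was lower in all 14. The 4 falling members became 6 without the dimmest genes (with KDM4B and KDM5B added), 7 with the trended robust prior, 1 with every probe tested, 2 with the replicate block, and 1 to 3 without any 1 array. The share of tested genes called lower moved as well, from 1.85% in the reported analysis to 4.45% without the dimmest genes. It was 3.79% with the trended robust prior, 0.39% with every probe tested and 0.638% with the replicate block. Without any 1 array it was 0.49% to 1.33%. The 555 genes called over the whole table became 840 without the dimmest genes, 1026 with the trended prior, 254 of all probes when every probe was tested, 184 with the replicate block, and 147 to 447 without any 1 array. The 7 members under the trended prior include KDM4B (adjusted p = 0.0205), KDM5B (0.0123) and KDM5A (0.0335). With the replicate block KDM7A (0.0715) and KDM4C (0.0929) did not pass. The deviations of same-numbered arrays from their group means correlated at -0.02, -0.03 and -0.15, and those of differently numbered arrays at -0.10 to 0.13. With 3 arrays per group these deviations sum to 0 within a group. Such weak correlations therefore cannot show whether same-numbered arrays belong together. The member median lay between -0.10 and -0.05. Values near 0 changed sign under some settings. ASPH was -0.0059 and KDM4A -0.0084 with median centring. KDM3B was 0.00089, OGFOD2 0.0050 and OGFOD3 0.014 with quantile normalization, and OGFOD2 was 0.0088 with array weights. Without any 1 array ASPH ranged from -0.0227 to 0.0641, JMJD6 from -0.173 to 0.0036, KDM2B from -0.0608 to 0.0116, KDM3B from -0.0822 to 0.0165, KDM4A from -0.0265 to 0.0416, OGFOD2 from -0.0528 to 0.0364, OGFOD3 from -0.0555 to 0.0356 and RIOX1 from -0.0159 to 0.0891. None of these passed in any setting, and the cause was not tested. The 11 falling HIF targets became 5 and the 4 collagen partners 0 with every probe tested, and 7 and 0 with the replicate block. These alternative counts were added after the data were seen.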
